A study of Mus musculus with 15 samples.

Results

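The 5 control arrays of CD4 T cells from the gut of chow-fed male mice were described on their own, as a baseline of which genes these cells showed. They were the arrays titled as CD4 T cell control and made up 5 of the 15 arrays of the series. All 15 held CD4 lymphocytes that had been flow-sorted out of lamina propria leukocytes of the small intestine, and the other 10 came from mice 10 or 30 days into a high-fat diet and were not compared here. The labels give neither strain nor age, and nothing in them says that the 5 control samples came from separate mice, so the spread between arrays may be technical. The RNA was amplified with SuperAmp, a commercial method for small cell numbers whose steps are not disclosed, and 250 ng of cDNA was labelled with Cy3 for a one-colour Agilent array.

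The lamina propria is the connective tissue under the gut epithelium, and most helper T cells found there are antigen-experienced cells that stay in the tissue. Helper T cells carry the CD4 coreceptor and the CD3 receptor complex and fall into lineages with their own regulators, such as T-bet (Tbx21) for Th1 cells, GATA3 for Th2 and FOXP3 for regulatory T cells. Th1 cells mainly make interferon-gamma, Th2 cells interleukin 4, Th17 cells interleukin 17 and regulatory T cells interleukin 10, and naive T cells carry the lymph node homing receptor Ccr7.

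Brightness was expressed as a level, the log2 processed signal of a probe minus the log2 75th percentile of all non-control probes of the same array. A level of 0 is thus the 75th percentile of its array, and 1 unit is a 2-fold difference in signal. A probe counted as detected on an array where the scanner software marked it as well above background. Each gene took the level of its brightest probe on average, so levels order the brightness of spots and do not order transcript amounts between genes. In bulk RNA a low level for a gene cannot tell fewer cells that express it from less RNA per cell.

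The 5 controls shared 1 slide and 1 scan, and no spot was saturated. Replicate 1 stood apart, with 82% of its spots well above background against 66.0%, 50.9%, 64.6% and 55.5% in replicates 2 to 5 (mean 63.8% ± 12, SD, n = 5). The dimmest spots well above background had levels between -4.27 and -3.84, which is where detection ended. Across genes detected on all 5 arrays, Pearson correlations between pairs of arrays ran from 0.651 (replicates 1 and 3) to 0.880 (replicates 4 and 5). The correlations are over 16021 gene names, which are not independent replicates. Because replicate 1 stood apart, the genes that the description turns on are given for each array, and the list counts that move without it are given both ways.

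The probe sequences come first because most of the brightest probes shared stretches of sequence with one another. Below are stretches of 30 bases from probes of 60, written 5′ to 3′ as deposited in the scanner files, with positions on mm9 from the same files. Capitals mark bases lying in a stretch of 14 bases that also occurs, on either strand, in probes of at least 5 other gene names. The first 5 are genes of the brightest 25, chosen to show the repeats that these probes carried and the 1 exception.
Sp110, chr1:87473677-87473736, minus strand: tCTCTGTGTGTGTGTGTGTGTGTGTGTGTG
Pak4, chr7:29344311-29344370, minus strand: gaaaggTTGTGTGTGTGTGTGTGTGTGTGT
Glrx2, chr1:145596708-145596767, plus strand: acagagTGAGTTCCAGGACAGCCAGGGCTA
Slc10a1, chr12:82056539-82056598, minus strand: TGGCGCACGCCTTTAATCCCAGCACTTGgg
H2-Q4, chr17:35521294-35521353, plus strand: attatggatctgcaaccctataggtggaac

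The next 4 belong to genes that mark other cells or, for Tnfrsf9, activated T cells, and that were bright on probes of the same kind.
Itgam, chr7:135261755-135261814, plus strand: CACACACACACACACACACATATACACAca
Pigr, chr14:70241922-70241981, minus strand: GAGGAGGAGGAGGAGAAGGAGAAGGAGAAG
Snap25, chr2:136607709-136607768, plus strand: CACACACACACACACACACAAAgtggattt
Tnfrsf9, chr4:150319582-150319641, plus strand: taaaatcAGTGTGTGTGTGTGTGTGTGTGT

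The last 7 are the T cell genes on which the identity of the sort and its lineages rests, and no base of these windows is shared in that way.
Cd4, chr6:124814711-124814770, minus strand: gcccactccccactcctgcttcctgagctg
Cd3e, chr9:44806828-44806887, minus strand: tctccatgaatacaccagccccctctctgc
Thy1, chr9:43856591-43856650, plus strand: taataccaccactgctacagcatctcaccg
Ctla4, chr1:60971801-60971860, plus strand: cttggaagcagcataaggatatagcattat
Tbx21, chr11:96959417-96959476, minus strand: gaggggggaggctatttattgtagagagtg
Foxp3, chrX:7172301-7172360, plus strand: attatgtgttggagtgtgcctgaacagctc
Rgs1, chr1:146091962-146092021, minus strand: cccttggataaccagtccaaaagtatatag

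Of 34821 gene names on the array, 16021 were detected on all 5 controls (46%) and 2506 on none (7.2%). Among the 17085 names that are gene symbols, 7935 were detected on all 5 (46.4%) and 1201 on none (7.03%). Of 1043 list genes matched, 591 were on all 5 (56.7%), and 604 were on the other 4 without replicate 1. The count was the same without it in 26 of the 38 lists and rose in 12. It rose from 11 to 12 for Th17 genes, 12 to 13 for regulatory T cell genes, 5 to 6 for follicular helper genes and 17 to 18 for gut homing genes. Among signalling molecules it rose from 12 to 13 for interleukins and for chemokines, 14 to 16 for chemoattractant receptors and 22 to 24 for costimulatory receptors. It also rose from 24 to 27 for insulin and mTOR signalling, 20 to 21 for fatty acid oxidation and for amino acid metabolism, and 23 to 24 for immediate early genes. The shares of all names and symbols are the background against which the counts of each gene group are to be read. Replicate 1 weighed on the low end: of 4032 gene names detected on exactly 1 array, 2717 were detected on that replicate, and without it 5197 names were detected on none. Of 1099 olfactory receptor names, which belong to the nasal epithelium, 154 were detected on all 5 arrays (14%) and 152 on none.

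**Figure D1:**
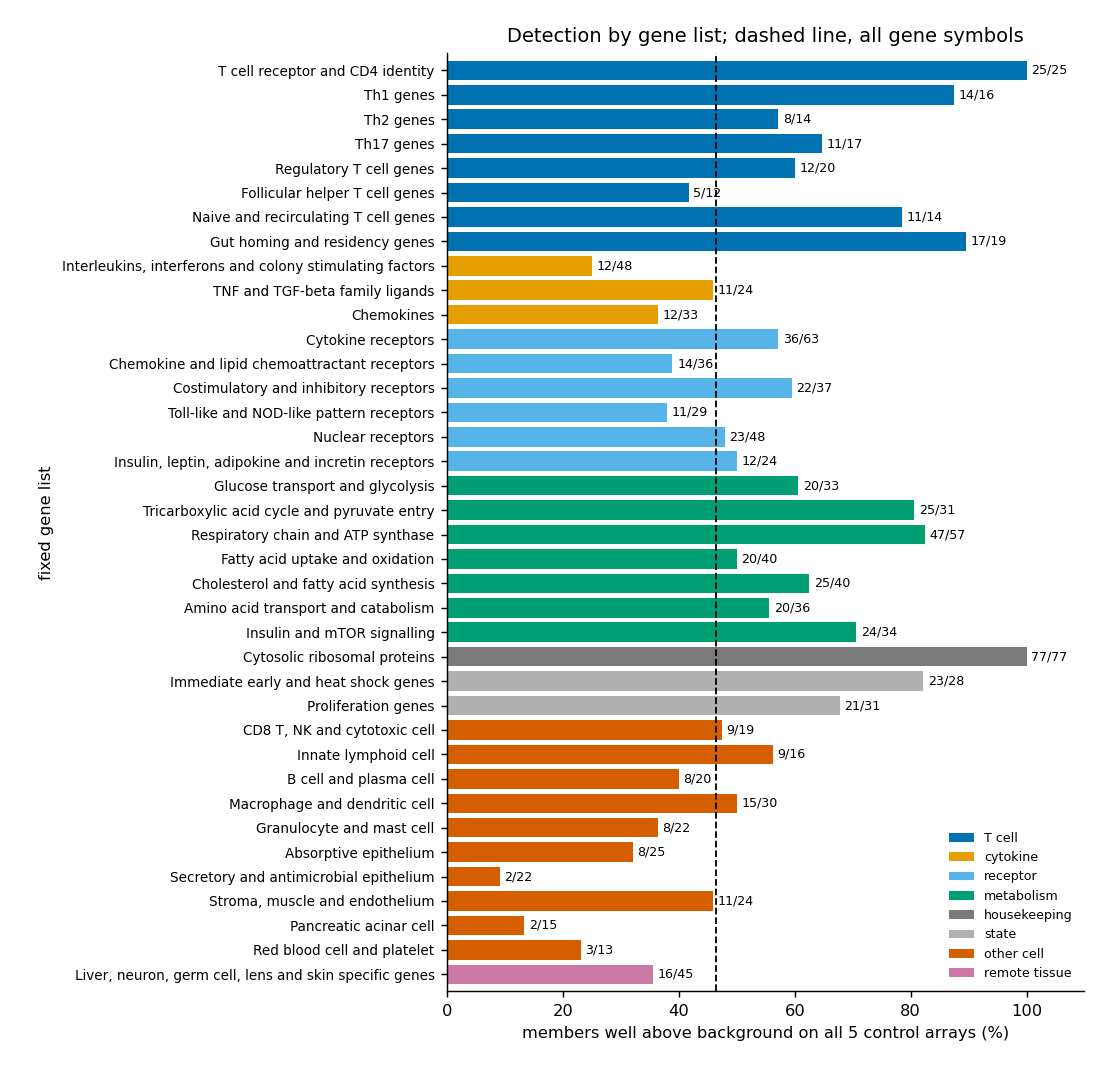
Percentage of the members of each gene list that were well above background on all 5 control arrays, with the count of members at the bar and the dashed line at the share of all gene symbols (46.4%). The T cell receptor and CD4 identity list and the ribosomal proteins stand at 25 of 25 and 77 of 77, and the secretory epithelium list at 2 of 22.

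The labelled cell type was set beside its markers: all 25 genes of the T cell receptor and CD4 list were detected on every array, at a median level of 3.31. The list was chosen with earlier results of these data known, so this is not an independent check of identity. Cd4, the coreceptor the cells were sorted on, had levels of 2.51, 3.40, 3.91, 3.57 and 3.16 in replicates 1 to 5 (3.31 ± 0.52, SD, n = 5). Cd3e, a signalling chain of the T cell receptor, had -0.55, 1.39, 1.56, 1.49 and 1.77 (1.13 ± 0.95), with replicate 1 alone below 0. Thy1, a surface glycoprotein of all mouse T cells, had 3.83, 5.02, 5.13, 4.01 and 4.43 (4.48 ± 0.58).

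Ctla4, the inhibitory receptor of regulatory and activated T cells, was the brightest of the 5 markers named for these cells, with 4.47, 6.40, 7.35, 6.83 and 7.0 (6.41 ± 1.14). Tbx21 was the steadiest of them, with 2.28, 2.32, 2.48, 2.29 and 2.94 (2.46 ± 0.28). In Cd4, Cd3e, Thy1, Ctla4 and Tbx21 alike the lowest value was that of replicate 1. The brightest members of the identity list were the costimulatory receptor Icos (5.13 ± 1.28), the adhesion receptor Cd6 (4.65 ± 0.36) and Thy1. The receptor zeta chain Cd247 varied most, from -2.47 in replicate 1 to 2.97 in replicate 3 (SD 2.04).

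**Figure D2:**
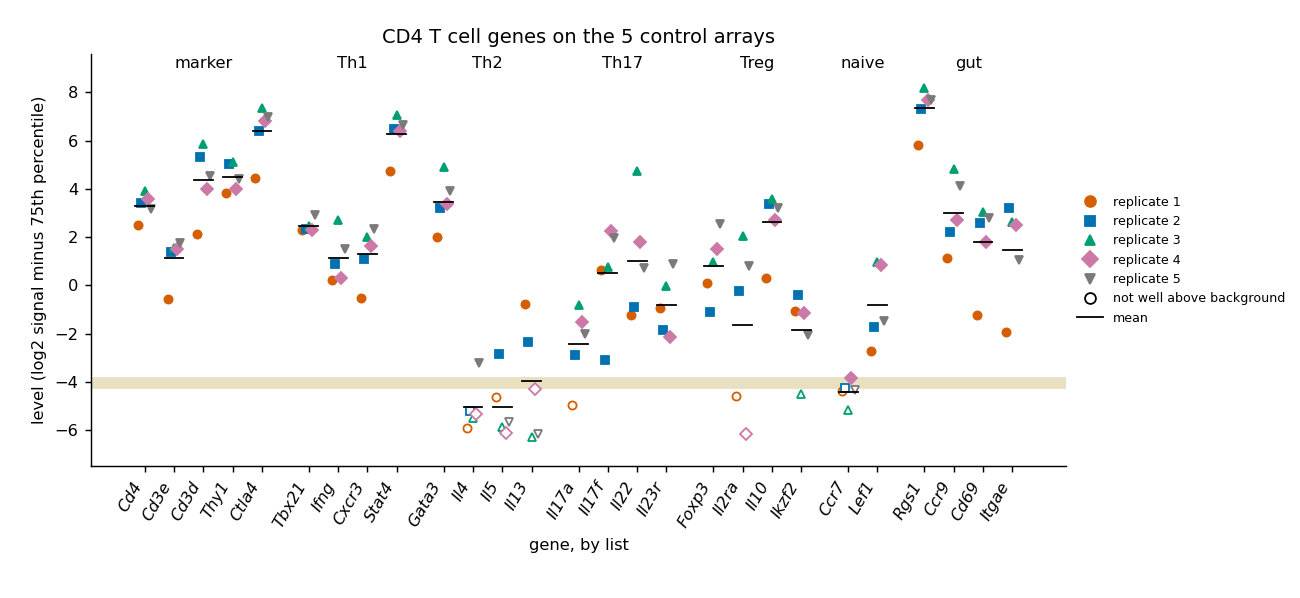
Level (log2 signal minus the array's 75th percentile) of CD4 T cell genes on the 5 control arrays, grouped by list; filled symbols are well above background, open symbols are not, bars are means, and the band spans the lowest levels still well above background on the 5 arrays. Cd4, Thy1 and Ctla4 lie above the band on every array, whereas Il4 and Ccr7 were detected on 1 array each.

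Th1 genes were seen almost throughout, with 14 of 16 detected on all 5 arrays. Stat4, which transmits the interleukin 12 signal, was the brightest at 4.75, 6.47, 7.05, 6.40 and 6.64 (6.26 ± 0.88). The chemokine receptor Cxcr6, carried by effector T cells in tissue, followed at 5.29 ± 1.21. Ifng itself was dimmer, with 0.24, 0.90, 2.73, 0.31 and 1.52 (1.14 ± 1.03), and its values spread over more than 2 units while all stayed detected. Cxcr3, a Th1 chemokine receptor, had 1.31 ± 1.12. Eomes was detected on 4 arrays and Hlx on 1.

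Th2 regulators were detected on every array, whereas the Th2 cytokines were detected on 1 or 2. Gata3 had 2.00, 3.20, 4.92, 3.38 and 3.90 (3.48 ± 1.06), and Maf, a transcription factor that drives interleukin 4 and interleukin 10, had 4.23 ± 1.52. Il4 was well above background on replicate 5 alone, at -3.21, and the other 4 arrays had values from -5.89 to -5.20 that are only upper bounds. Il5 was detected on 1 array, Il9 on 1 and Il13 on 2. In all, 8 of 14 members were detected on all 5 and none was missed on every array.

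Of the 17 Th17 genes matched, 11 were detected on all 5 arrays and the chemokine Ccl20 on none. Rora, a nuclear receptor of Th17 cells, was bright at 2.68, 4.92, 5.82, 5.74 and 5.77 (4.99 ± 1.34), and Stat3, which relays interleukins 6 and 23, had 4.5 ± 1.34.

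The Th17 cytokines were present but uneven. Il22, which acts on the epithelium, ranged from -1.22 in replicate 1 to 4.72 in replicate 3 (1.03 ± 2.41), and Il17f from -3.08 in replicate 2 to 2.27 in replicate 4 (0.52 ± 2.13). Il17a was detected on 4 arrays, missing on replicate 1, with -2.88, -0.83, -1.52 and -2.0 on the others. The array that was highest differed between Il22, Il17f and the interleukin 23 receptor Il23r, whose highest value was 0.89 in replicate 5.

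Regulatory T cell genes were detected on all 5 arrays in 12 of 20 cases. Foxp3 had 0.09, -1.10, 0.97, 1.52 and 2.53 (0.80 ± 1.38), so that replicate 5 was the highest and replicate 2 the lowest. Tigit, an inhibitory receptor, had 5.13 ± 1.19, and Tnfrsf4, the costimulatory receptor OX40, had 3.07 ± 1.16. Il10, the suppressive cytokine, had 0.30, 3.39, 3.57, 2.71 and 3.22 (2.64 ± 1.35) and was the brightest of the interleukins listed. Il2ra, the interleukin 2 receptor alpha chain found on most regulatory T cells, was detected on 3 arrays, at -0.22, 2.07 and 0.79 in replicates 2, 3 and 5, and not on replicates 1 and 4. Ikzf2, the transcription factor Helios, was detected on 4.

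Follicular helper genes were the least complete of the T cell lists, with 5 of 12 on all 5 arrays (41.7%). That is near the 46.4% of all gene symbols. Bcl6, the regulator of that lineage, had 0.70, 0.87, 2.34, 1.95 and 2.07 (1.59 ± 0.75), and the inhibitory receptor Pdcd1 had 1.48 ± 0.87. Cxcr5, which guides these cells into B cell follicles, was detected on replicate 2 at 1.15 and on 1 other array, and Il21 on replicate 1 alone.

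Genes of naive and recirculating cells were uneven. Ccr7 was detected on 1 array, replicate 4, at -3.85. The chromatin organiser Satb1 (6.22 ± 0.84) and the transcription factors Foxo1 (4.14 ± 0.81) and Foxp1 (3.55 ± 1.67) were bright, and 11 of the 14 members were detected on all 5.

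Gut homing and residency genes were detected on all 5 arrays in 17 of 19 cases. Rgs1, a brake on chemokine receptor signalling that is high in resident T cells, had 5.84, 7.33, 8.19, 7.67 and 7.70 (7.35 ± 0.90). Ccr9, the receptor for the small-bowel chemokine CCL25, had 1.13, 2.22, 4.83, 2.73 and 4.12 (3.01 ± 1.48). Its other probe had -2.44 and was not detected on all 5. Cd69 (1.79 ± 1.75) and Itgae (1.49 ± 2.08), which retain T cells in mucosa, were lowest in replicate 1, at -1.23 and -1.94, and between 1.05 and 3.20 on the others. Cd44, a memory T cell adhesion receptor, had 4.96 ± 1.18. Gpr15 was detected on 4 arrays and Gpr18 on 3.

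Cytokine genes were detected unevenly. Of 48 interleukins, interferons and colony stimulating factors, 12 were detected on all 5 arrays, 28 on some and 8 on none, namely Il6, Il12a, Il15, Il19, Il33, Il36b, Ifnb1 and Csf1. Beside Il10 and Ifng the bright members included Il16, a chemoattractant for CD4 cells that had 1.62 ± 1.59. Il2, the T cell growth factor, was detected on 3 arrays at -2.75, -2.82 and -2.70. Csf2 was detected on replicate 2 alone, at -1.90, and Tnf on replicate 4 alone, at -2.67.

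Of the 24 ligands of the TNF and TGF-beta families, 11 were detected on all 5. Tnfsf8, the CD30 ligand, had 1.54, 2.04, 2.86, 3.51 and 3.98 (2.79 ± 1.01), and Cd40lg, through which helper cells license B cells and dendritic cells, had 1.85 ± 1.54. Tgfb1, often abundant in regulatory T cells, was detected on 3 arrays only, with 0.36 in replicate 3 as the highest. The lymphotoxin genes Ltb (-0.71 ± 1.35) and Lta (-1.84 ± 0.77) were dim but detected throughout.

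Among 33 chemokines 12 were detected on all 5, and Ccl7, Ccl11, Ccl20 and Ccl28 on none. Ccl5, a product of effector T cells, had 2.39, 4.6, 5.46, 4.59 and 5.04 (4.42 ± 1.19). Ccl25, made by small-bowel epithelium, had 3.01, 2.68, 1.98, 2.33 and 2.39 (2.48 ± 0.39), and its highest value was in replicate 1. That was the brightest of its 4 probes. The next had -2.36, and no other was detected on all 5. Cxcl11 had 8.56 ± 0.21 on a probe with a shared stretch and 5.21 on its other probe.

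Cytokine receptors were detected more widely than cytokines: 36 of 63 on all 5 arrays and Osmr alone on none. The interleukin 2 and 15 receptor beta chain Il2rb had 5.27, 6.0, 7.49, 6.71 and 6.82 (6.46 ± 0.85), and Il21r had 6.10 ± 1.20. The interleukin 18 receptor chain Il18r1 (4.24 ± 1.11), the interleukin 12 receptor chain Il12rb2 (3.54 ± 1.5) and the TGF-beta receptor Tgfbr2 (4.09 ± 1.46) were all lowest in replicate 1. Il7r, the survival receptor of memory cells, had -0.57, 1.70, 3.65, 1.56 and 1.92 (1.65 ± 1.5). Il15ra had 8.58 on a probe with a shared stretch and -0.76 on its other probe.

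Of the 36 chemokine and lipid chemoattractant receptors, 14 were detected on all 5 and Ccr1 on none. Cxcr4 was detected on 4 arrays, at levels from -0.12 to 0.81, and not on replicate 1, at -4.18. Costimulatory and inhibitory receptors were detected on all 5 in 22 of 37 cases, and Cd226 and Cd40 on no array. Tnfrsf9, the receptor 4-1BB, had 8.36 ± 0.23 on the repeat-bearing probe printed above and 3.32 on its other probe. Both were detected on every array.

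Pattern receptors were scarcer, with 11 of 29 on all 5 and Tlr3, Tlr5 and Nod2 on none. Nlrp1a, an inflammasome sensor, had 7.64, 7.54, 7.86, 7.35 and 7.40 (7.56 ± 0.21), Nlrc3, a negative regulator of T cell activation, 3.84 ± 1.24, and Tlr9 2.51 ± 0.63. Of 48 nuclear receptors 23 were detected on all 5. The glucocorticoid receptor Nr3c1 had -0.04, 1.63, 3.66, 2.89 and 3.46 (2.32 ± 1.54), the fatty acid sensor Ppard 2.20 ± 1.33 and Nr4a2, an early T cell activation gene, 4.06 ± 1.26. Pparg was detected on 2 arrays, the retinoic acid receptor Rara on 1 and Rxra on 2. Esr2, an oestrogen receptor, had 7.16 ± 0.42 with its highest value, 7.88, in replicate 1.

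Receptors for metabolic hormones and diet-derived ligands were near the share of all symbols, with 12 of 24 on all 5. Adipor1, a receptor for adiponectin, had 1.00, 3.54, 4.61, 3.63 and 3.44 (3.24 ± 1.34), and the insulin receptor Insr had 0.66, 1.36, 1.10, 2.08 and 3.16 (1.67 ± 0.98). The leptin receptor Lepr was detected on 4 arrays, with 0.18 in replicate 2 as its highest value. The short-chain fatty acid receptors Ffar3 (0.98 ± 0.71) and Ffar2 (-0.46 ± 0.88) and the incretin receptor Glp1r (-0.54 ± 1.16) were detected on all 5. Ffar2 and Glp1r were highest in replicate 1, at 1.05 and 1.27. Ffar4 was detected on none.

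Energy metabolism was detected broadly, most completely in the mitochondrion. Respiratory chain genes were on all 5 arrays in 47 of 57 cases and those of the tricarboxylic acid cycle in 25 of 31. The ATP synthase genes Atp5g1 and Atp5h had 5.16 ± 0.20 and 4.83 ± 1.17, and the complex III subunit Uqcrb had 4.81 ± 1.02. The shared dehydrogenase subunit Dld had 1.57, 4.64, 5.58, 4.71 and 5.21 (4.34 ± 1.59), and malate dehydrogenase Mdh1 had 3.91 ± 1.28. Ndufa8 and Pdk4 were detected on none.

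Glycolysis genes were on all 5 arrays in 20 of 33 cases. Hexokinase Hk1 had 4.91, 6.37, 7.39, 6.69 and 6.66 (6.40 ± 0.92), aldolase Aldoa 5.62 ± 0.94 and pyruvate kinase Pkm 4.13 ± 0.74. Gapdh had 4.88, 4.56, 5.01, 4.53 and 5.5 (4.90 ± 0.40), without the low value of replicate 1 that the other 3 showed. Of the glucose transporters Slc2a3 was detected on all 5 (0.03 ± 1.62) and Slc2a1 on 3, while Hk2 had -0.65 ± 2.05.

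Fatty acid uptake and oxidation genes were on all 5 in 20 of 40 cases. Acsl5, which activates fatty acids, had 2.43, 2.70, 4.77, 3.62 and 4.03 (3.51 ± 0.96), and the trifunctional protein subunit Hadhb had 2.48 ± 1.11. Cpt1a, the gate of mitochondrial fatty acid entry, had -0.37, 0.44, -3.74, 0.94 and 1.11 (-0.32 ± 2.00), with replicate 3 far below the others. Cd36, a fatty acid transporter, was dim at -2.15 ± 0.98. Acads and Etfdh were detected on none.

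Cholesterol and fatty acid synthesis genes were on all 5 in 25 of 40 cases. Srebf2, a regulator of cholesterol synthesis, had 0.96, 3.47, 2.07, 3.65 and 3.59 (2.75 ± 1.19). Fasn, the fatty acid synthase, was detected on none. In amino acid metabolism 20 of 36 genes were on all 5, led by ornithine decarboxylase Odc1 (6.22 ± 0.80), the amino acid transporter subunit Slc3a2 (5.51 ± 0.81) and the aminotransferase Got1 (5.15 ± 1.04). Slc7a5, the partner of Slc3a2, had 1.61 ± 1.17.

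Insulin and mTOR signalling genes were on all 5 in 24 of 34 cases, with Mtor at 1.96 ± 1.12 and Hif1a, the hypoxia regulator, at 1.95 ± 1.36. Myc, which drives T cell growth, spread widely at -1.39, 0.27, 2.90, -3.46 and 2.04 (0.07 ± 2.57). All 77 ribosomal protein genes matched were detected on every array, at a median level of 5.35, with Rpl12 at 7.43 ± 0.65 and Rps23 at 7.39 ± 0.42. Immediate early and heat shock genes were on all 5 in 23 of 28 cases. They included the chaperones Hspa8 (6.63 ± 0.84) and Hsph1 (5.23 ± 1.12) and the transcription factor Fos (2.82 ± 1.71). Of 31 proliferation genes 21 were on all 5, with the cycling marker Mki67 at 0.94, 3.68, 5.02, 4.67 and 3.97 (3.66 ± 1.61), the replication helicase subunit Mcm4 at 4.89 ± 1.23 and Aurkb on none.

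Genes of cells other than CD4 T cells were detected less often than T cell genes, and mostly at low levels. Over the 8 T cell lists, 101 of 134 genes were on all 5 arrays (75.4%) and 1 on none, and over the 11 lists of other cells and remote tissues 89 of 247 were on all 5 (36%) and 20 on none (8.10%). No difference between these shares was tested, and the lists were chosen with earlier results of these data known. The lists overlap: Gata3, Il7r, Il1rl1 and Ltb of the innate lymphoid list also belong to T cells.

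The brightest of them on probes without a shared stretch were cytotoxic granule genes. Gzmb and Gzma, proteases of cytotoxic granules, had 4.14, 5.91, 6.69, 6.36 and 6.74 (5.97 ± 1.08) and 4.04, 4.77, 6.49, 5.84 and 5.31 (5.29 ± 0.95). Nkg7, a granule protein, had 3.83 ± 1.11. The CD8 chains were low, with Cd8a at -1.10, -3.98, -0.74, 0.03 and -3.49 (-1.86 ± 1.77) and Cd8b1 detected on replicate 4 alone, at 0.34. Prf1, the pore-forming perforin, had 1.61, 2.70, 1.03, 0.91 and 3.71 (1.99 ± 1.19). Of 19 genes of the cytotoxic list 9 were on all 5 arrays, among them Cd8a and the receptors Cd244 and Cd160, while the natural killer receptors Ncr1 and Klrb1c were detected on 2 and 3 arrays. What cells gave the granzyme signal was not tested.

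B cell and plasma cell genes were on all 5 arrays in 8 of 20 cases. Of the defining genes Cd79b, a chain of the B cell receptor complex, had 0.44, -2.05, 0.67, 1.08 and -1.93 (-0.36 ± 1.51). The B cell regulator Pax5 had -1.71 ± 0.56, and Jchain, of antibody-secreting plasma cells, ranged from -2.66 in replicate 1 to 2.26 in replicate 5 (0.06 ± 1.85). The complement receptor Cr2 had 1.12 ± 0.39, Cd79a was detected on 2 arrays and Ms4a1, which encodes CD20, on none.

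Macrophage and dendritic cell genes were on all 5 in 15 of 30 cases, and 5 of the 9 defining genes were, namely Csf1r (3.21 ± 0.63), Itgam, Cd68 (-1.0 ± 0.27), Fcgr1 (0.44 ± 0.64) and the class II gene H2-Aa (0.82 ± 2.79). H2-Aa ran from -3.52 in replicate 1 to 4.13 in replicate 3. Lyz2 was detected on 3 arrays, and C1qa and Itgax on replicate 1 alone. Granulocyte and mast cell genes were on all 5 in 8 of 22 cases, with Ly6g and Epx of the 9 defining genes.

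Absorptive epithelial genes were on all 5 in 8 of 25 cases, including 5 of the 10 defining genes: Epcam (-1.49 ± 2.27), Cdh1 (-1.53 ± 0.82), Fabp2 (-1.70 ± 2.18), Krt20 (-2.60 ± 1.20) and Lct (-3.06 ± 0.48). Stromal and endothelial genes were on all 5 in 11 of 24 cases, and of the 11 defining genes these were Pecam1 (2.85 ± 1.13), Des (-1.61 ± 0.58), Myh11 (-1.82 ± 1.09) and Col3a1 (-2.29 ± 0.59). None of the 10 defining genes of secretory epithelium was detected on all 5, nor any of the 5 of pancreatic acinar cells. Of 13 red cell and platelet genes 3 were, with Slc4a1 (-2.71 ± 1.16) as the 1 defining gene of 8. Of the 10 defining genes of remote tissues 5 were, namely Snap25, Prm1, Krt5, Myh6 and Sftpc. Alb, the serum albumin of liver, was detected on replicate 1 alone, at 1.38, and the globin Hbb-b1 likewise, at -2.45.

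Median levels moved with replicate 1. In 8 of 8 T cell lists replicate 1 had the lowest median level, and in 9 of 11 lists of other cells and remote tissues it had the highest. In all 11 of those no array had more members detected, such as 21 of 25 in the absorptive epithelium list. In the innate lymphoid list replicate 2 had as many, 14 of 16. Replicate 1 also had the most of all 34821 gene names detected, 29775 against 20051 to 25208 on the others. Of the genes in those 11 lists 82.2% were detected there by their brightest probe. The like measure is the 29775 of 34821 gene names, since the 82% of spots counts every probe. The median T cell gene had levels of 0.08, 1.33, 2.56, 1.54 and 1.95 in replicates 1 to 5, and the median gene of other cells and remote tissues -1.64, -3.35, -4.15, -2.77 and -3.82. The share of spots well above background fell in the same order of arrays as the second set, from 82% to 50.9%, apart from replicates 2 and 4. Dim spots as a whole showed the same shift, which was thus not particular to these lists. The median signal of all spots was 77.5, 46.7, 19.3, 45.0 and 39.2 in replicates 1 to 5. The 75th percentile that was subtracted was lowest in replicate 1, at a signal of 220 against 247 to 313. The part of RNA amount, amplification or cell purity in this was not tested. The linear signal summed over all members of a list, leaving out shared probes, did not follow the medians: it was highest on replicate 1 in 4 of the 11 lists. Those were secretory epithelium (11.4 times the 75th percentile, with 4.94 in replicate 4 as the lowest), acinar cells (10.9 against 1.37 to 4.41), red cells (4.75 against 0.889 to 1.61) and remote tissues (25.5 against 10.4 to 17.7). For cytotoxic cells it was lowest there, at 54.8 against 119 to 248. It was highest on replicate 3 for myeloid cells (51.7 against 36.3 in replicate 1) and innate lymphoid cells, and on replicate 5 for absorptive epithelium (14.5 against 10.2) and B cells (18.3 against 12.2).

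**Figure D3:**
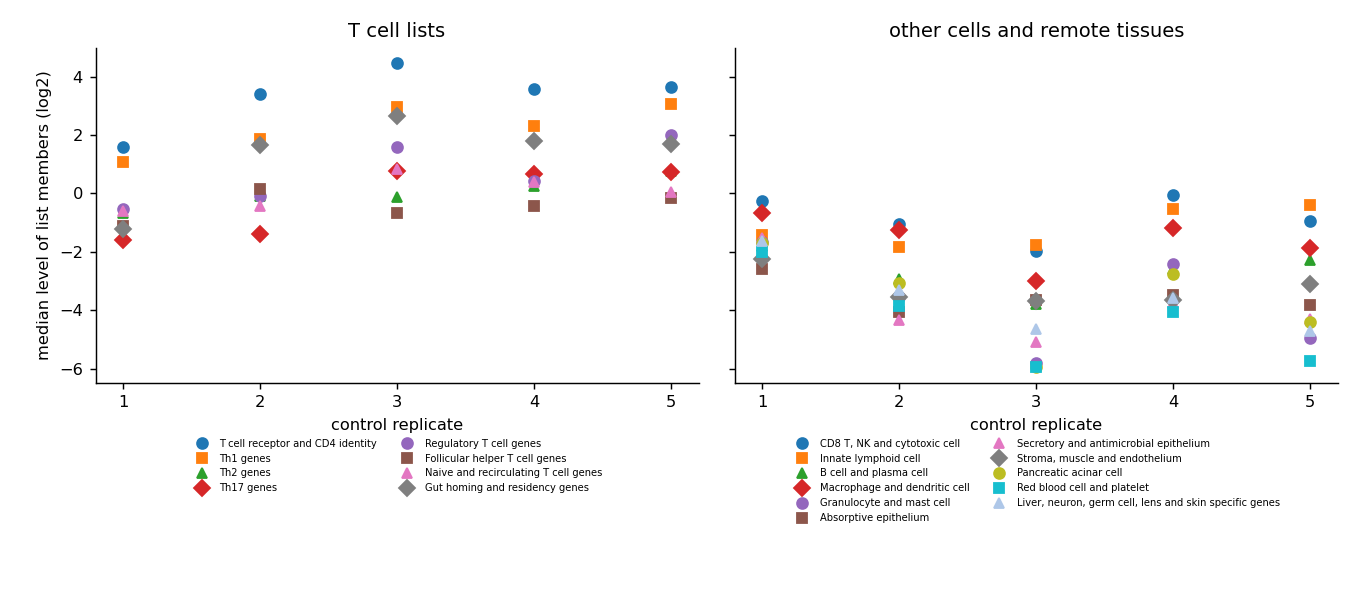
Median level (log2 signal minus the array's 75th percentile) of the members of each gene list on control replicates 1 to 5, for 8 T cell lists on the left and 11 lists of other cells and remote tissues on the right; each symbol is 1 list. On the left every list is lowest on replicate 1, and on the right 9 of 11 are highest there.

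None of the 25 brightest symbols belonged to any of the 38 gene lists. The 25 brightest symbols lay between 9.98 and 10.62, with SDs from 0.12 to 0.34. They were Sp110, Pak4, Dennd4a, Fam219a, Cep170b, Arl6ip6, Ubtf, Ms4a4c, Spag7, Sgsh, Creb5, Zcchc9, Madd, Cyp2u1, Ldlrad3, Glrx2, Sema4c, Ccdc138, Slc10a1, Hemgn, Eya1, H2-Q4, Neurl1b, Mms22l and Skint7. Several of these are known from elsewhere: Slc10a1 is the bile acid transporter of liver cells, Skint7 belongs to a family of skin and thymus genes and Hemgn is a gene of red blood cell precursors. Sp110, a nuclear body protein, had 10.99, 10.58, 10.66, 10.52 and 10.37, and the kinase Pak4 had 10.81, 10.40, 10.47, 10.28 and 10.15. In both, replicate 1 was the highest, the reverse of the T cell genes.

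Of these 25 probes, 22 held the letters TG repeated 8 times without a break, in runs of 18 to 41 bases. The other strand reads CA. On the whole array 71 of 55681 probes (0.128%) held that TG repeat and all 71 were detected on all 5 arrays, as were all 34 probes with the CA repeat. Glrx2 and Slc10a1 carried shared stretches of another kind, printed above. H2-Q4, a class I histocompatibility gene, was the only 1 of the 25 with no shared stretch. Whether near-identical genes of that family bind the same probe was not tested.

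Where a gene had other probes, these were far dimmer. For 17 of the 25 symbols with further probes, the next brightest had a median level of -2.54, from -5.83 to 4.67. Probes sharing 14 bases with at least 5 other gene names made up 3.57% of all probes and had a median level of 1.65, against -2.85 for the rest. They represented 24 of the brightest 25 symbols, 94 of the brightest 100 and 180 of the 290 detected on all 5 with a level above 6, but 568 of all 17085 (3.32%). What bound to these probes was not tested.

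**Figure D4:**
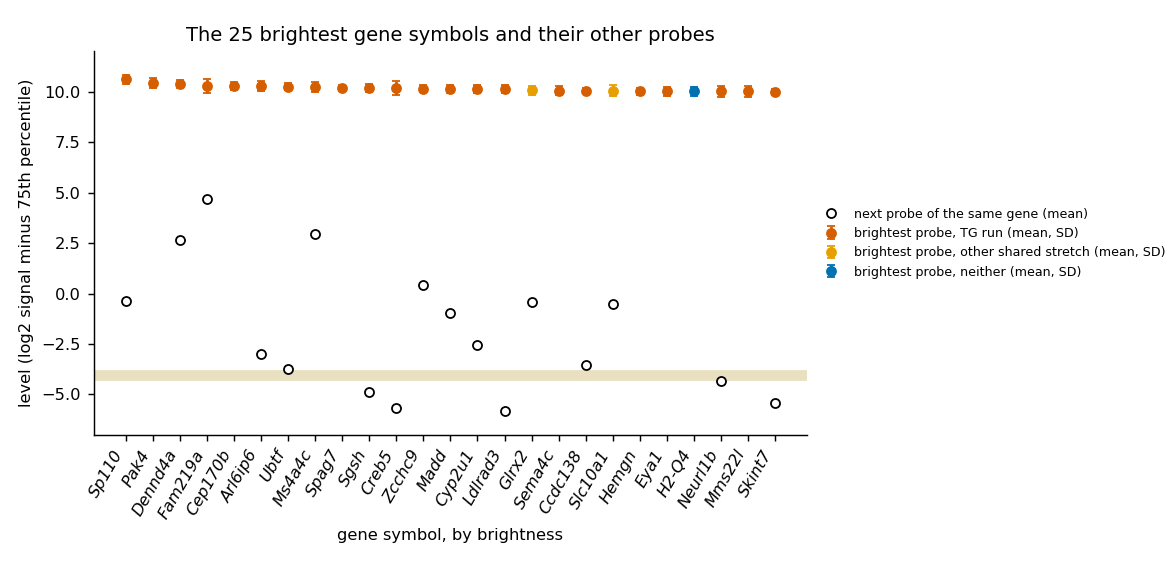
Mean level over the 5 control arrays (log2 signal minus the array's 75th percentile) of the 25 brightest gene symbols, with SD bars, coloured by whether the probe holds a TG run, another shared stretch or neither; open circles are the mean of the next brightest probe of the same gene, and the band spans the lowest levels still well above background. The 25 lie between 9.98 and 10.62, and the open circles between -5.83 and 4.67.

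The same held for the brightest genes of other cells. Itgam, an integrin of myeloid cells, had 8.73 ± 0.14 on the CA repeat printed above and -0.77 on its next probe. Pigr, the antibody transporter of epithelium, had 8.09 ± 0.22 on a GAG repeat that the scanner files place on chromosome 14 although the gene lies on chromosome 1, and -2.34 on its next probe. Snap25, a neuronal protein, had 8.79 ± 0.24 and no other probe. In all, 8 of the 10 brightest genes from these lists were on shared probes, Gzmb and Gzma being the other two, and all 6 list genes with a level above 8 were.

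A ranking without the shared probes was added after the data had been seen. It kept 16825 symbols, of which 7580 (45.1%) were detected on all 5, and moved 308 symbols to another probe with a median drop of 6.20 units. Behind H2-Q4 the first places then went to Exosc2, Rn4.5s, Hsd3b2 and Tpt1, a growth-related protein made in large amounts by most cells. The mitochondrially encoded respiratory genes followed within the first 20, with COX3 at 6.14, 8.33, 8.46, 8.22 and 8.06 (7.84 ± 0.96), ATP6 at 7.76 ± 1.48, COX1 at 7.64 ± 0.79 and CYTB at 7.56 ± 0.94. So did the ribosomal genes Rpl12 and Rps23, and Rgs1 was the brightest T cell list gene at rank 22. H2-K1, a class I gene present on nearly all cells, had 7.16 ± 0.85. COX3, ATP6, COX1, CYTB, Rpl12, Rps23, Rgs1 and H2-K1 were all lowest in replicate 1. Other genes of that ranking were not. H2-Q4, Exosc2 and Hsd3b2 were lowest in replicate 5 and Rn4.5s in replicate 4. Esr2, at rank 27, was highest in replicate 1.

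The spread between arrays was far larger than that within an array. Among gene names detected on all 5, the median SD was 1.00 log2 units, and without replicate 1 it was 0.77. For 136 probes printed 10 times and well above background in every spot, the median SD over the spots of an array was 0.091, and the median SD of the same probes between arrays was 1.20, which is 13.2 times as large. Replicate 1 was the array farthest from the median of the 5 for 40.9% of these gene names.

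Of the 20 genes of largest spread, 17 were highest on replicate 3, and 10 were lowest on replicate 2 and 6 on replicate 1. Among the 10% of gene names with the largest SD, replicate 3 was farthest from the median for 31.0% and replicate 1 for 28.8%. Adam32, a testis protein, had -3.36, -4.19, -3.76, 1.36 and 3.02 (SD 3.33), and so was high on replicates 4 and 5. G6pdx, the first enzyme of the pentose phosphate pathway, had -3.35, -0.86, 5.11, 2.69 and 1.84 (SD 3.27), and Tspo, a mitochondrial outer membrane protein, had 3.91 in replicate 3 and values from -3.88 to -0.22 elsewhere (SD 3.23). The others highest on replicate 3 included Rtn4, Zfp746, Dnajc21, Dnajb2, Mrps2, Nfrkb, Aamdc, Rab28, Clasp2, Cdc42se1, Stard3 and Rpusd4, with SDs from 2.84 to 3.03. Fbxw7 was highest on replicate 5, at 3.18, and Csprs ran from 4.38 in replicate 1 to -2.74 in replicate 5. The clock gene Per2 was high on replicates 3 and 5, at 2.53 and 2.19, and between -3.77 and -2.14 on the other 3.

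Mprip, a myosin phosphatase partner, stood out among bright genes, with -2.96 in replicate 1 and 4.19, 4.56, 3.86 and 4.37 on the others (SD 3.23). Qrich1 (-1.17 against 3.89 to 5.77) and the ubiquitin ligase receptor Crbn (-2.32 against 2.60 to 4.59) followed it. In each of these 3 replicate 1 lay below the other 4, which did not overlap with it. The 10 bright genes of largest spread also held Ssbp1, Phrf1, Atg2a, Zc3h13, Nfx1, Wsb1 and Denr, with SDs from 2.22 to 2.66.

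The steadiest genes, among those above the median level, included the actin cap protein Tmod2 (0.55, 0.58, 0.58, 0.52 and 0.47), the signalling ligand Wnt6 (SD 0.07) and Ccdc138 (SD 0.12), the last with a shared stretch. Cd300lf, U2af1l4, Slc38a6, Med16, Lrrc49, Pdlim1 and Scn3b were also among them, with SDs from 0.11 to 0.13. Of these, Med16 and Scn3b were likewise bright on probes with a shared stretch. Their levels would have put both near the top of the ranking without shared probes, where neither appeared. Symbols detected on all 5 with a shared stretch had a median SD of 0.31 (477 symbols), and those without one had 1.15 (7458 symbols). Their median levels were 4.18 and 0.36, so that level and shared stretch went together. With the symbols split by level into 4 equal groups, from dim to bright, the median SD was 1.03, 1.27, 1.20 and 1.01.

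**Figure D5:**
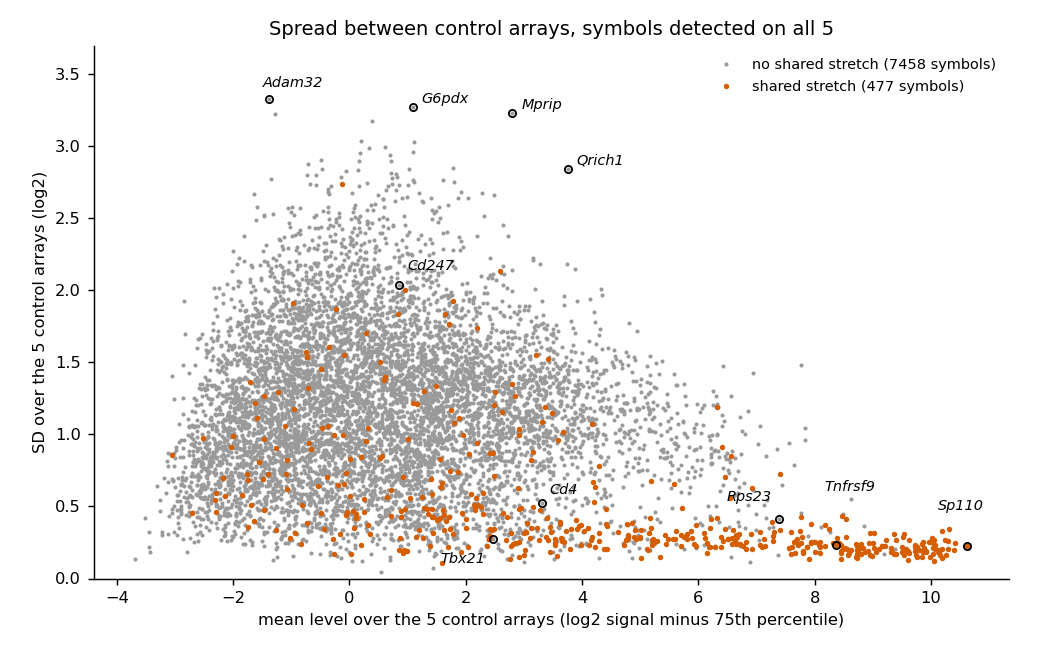
SD over the 5 control arrays (log2) against mean level (log2 signal minus the array's 75th percentile) for the 7935 gene symbols detected on all 5, with orange for symbols whose probe holds a shared stretch and grey for the rest; ringed genes are named. Beyond a level of 8 most points are orange, and Adam32, G6pdx and Mprip have the largest SDs, from 3.23 to 3.33.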

How the data were processed

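The scanner files hold linear intensity values per spot, background subtracted and detrended within each array by Agilent Feature Extraction 10.7.3.1 on an mm9 grid, with a surrogate value where a signal did not exceed background, per the file headers. The flags for well above background, outlier and saturation, and the probe sequences, are other columns of the deposited scanner files. The authors' deposited series table holds log2 values whose making is not given in the sources used here. It served as an alternative, and its 10 columns of the other groups were not used.

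From these, control spots and outlier spots were left out, spots of a probe were averaged on the log2 scale, the array's 75th percentile was subtracted, and a gene took its probe of highest mean level. A probe was detected where at least a share of 0.5 of its spots was well above background. No test between groups was run, since the labels give these arrays 1 condition. Single arrays far from the other 4 were marked by Dixon's ratio.

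Genes named with values were the 25 brightest symbols, the 20 of largest SD on all 5 arrays, the 10 of largest SD among the brightest 25% of those, the 10 of smallest SD above the median level, and in each of 38 lists the defining genes, the 3 brightest and the member of largest SD. Exosc2, Rn4.5s, Hsd3b2, Tpt1, COX3, ATP6, COX1, CYTB and H2-K1 were named after their values were seen. Members and lists were chosen with earlier results of these data known. Of 1055 list genes 1043 were matched, 15 through an older symbol in a RefSeq gene table.

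Alternatives were another detection flag, other scalings, normexp with quantile normalization (limma 3.58.1, R 4.3.3), the deposited table, other probe rules and each array left out. Scripts used Python 3.11.15, numpy 2.4.6 and pandas 2.3.3, and were tested on simulated data. The number of arrays, 5, limits the precision of every mean. Not every gene that the naming rule covers is reported here.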

Additional observations from a re-analysis of the deposited data

Results flagged for a closer look

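In 438 quantities, array summaries, levels of named genes and counts of list members detected, 53 had 1 array farther from the other 4 than Dixon's 95% critical value of 0.71 allows. Chance flags about 1 in 20 groups, and the genes share arrays and so are not independent. Some named genes, among them Mprip, Qrich1, Crbn and the member of largest SD in each list, were chosen for their spread on these same arrays, so a far array among them partly repeats that choice. Of the 53, 39 were set by replicate 1, and no explanation was tested.

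Replicate 1 was far below the others for 21 genes. Among T cell genes these were Cd3e (-0.55), Icos (2.92), Cd69 (-1.23), Il10 (0.30), Ccl5 (2.39), Stat4 (4.75), Runx3 (-3.19), Rora (2.68), Il1rl1 (-0.60), Ccr8 (-3.63) and Cxcr4 (-4.18). Among metabolic and housekeeping genes they were Aldoa (4.01), Pkm (2.85), Dld (1.57), Slc3a2 (4.08) and Hspa8 (5.16). The centromere gene Cenpa (0.38), the neutrophil gene Ly6g (-3.07), Crbn (-2.32), Qrich1 (-1.17) and Mprip (-2.96) made up the rest.

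Replicate 1 was far above the others for 17 genes, nearly all of other cells or organs. They were Alb of liver (1.38), Zp3 of the egg (0.22), Pnlip of the pancreas (-2.64), the platelet gene Pf4 (-4.07) and the red cell genes Hbb-b1 (-2.45) and Slc4a1 (-0.72). The myeloid and mast cell genes C1qa (-3.77), Fcgr1 (1.56), Itgax (-1.87), S100a8 (-3.18), S100a9 (-0.95) and Mcpt1 (-0.89) were also among them. So were the stromal and endothelial genes Dcn (-2.49), Tagln (2.41) and Cdh5 (-5.07, not well above background), the natural killer receptor Ncr1 (1.95) and the T cell cytokine Il21 (-2.54). Alb, Zp3, Pnlip, Pf4, Hbb-b1, C1qa, Itgax, S100a8, S100a9, Mcpt1, Dcn and Il21 were each detected on 1 array only. Their values on the other arrays are bounds set by background, so the ratio there does not measure a distance between signals. The list of absorptive epithelium had 21 of 25 members detected on replicate 1, where 29775 of all 34821 gene names were detected.

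Other arrays set 14 genes apart. Replicate 2 was high for Csf2 (-1.90) and low for the nuclear receptors Ppara (-2.34) and Vdr (-3.86). Replicate 3 was high for Klf2 (3.28), Ltb (1.64), Mvk (3.37), Rplp1 (3.46) and Clca1 (5.11). Replicate 4 was high for Cd8b1 (0.34), Lgr5 (-2.50), Ppbp (-2.49) and Tnf (-2.67). Replicate 5 was high for Il4 (-3.21) and low for the glycolytic gene Tpi1 (-2.95). Csf2, Cd8b1, Lgr5, Ppbp, Tnf and Il4 were each detected on 1 array only, so their values elsewhere are bounds set by background.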

How the results depend on the processing

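No paired analysis was possible because only the control group was described. The count of gene names detected on all 5 arrays stayed within 1.5 times of 16021 under every alternative run, from 12300 (a value in the deposited table) to 22713 (positive and significant signal as the flag), and from 16273 to 17797 without 1 array. The count detected on none fell to 571 with the positive and significant flag and ran from 2635 to 5197 without 1 array, the highest without replicate 1. List genes on all 5 numbered 462 to 751 over the alternatives, against 591. Of the brightest 25 symbols, 18 were again among the brightest 25 with normexp and in the deposited table, 24 to 25 without 1 array, 8 with the median over a gene's probes and 1 with the shared probes left out, an alternative added after the data were seen. The median SD of 1.00 became 0.75 with normexp and quantile normalization, 0.64 in the deposited table, 1.34 with no filter on dim genes and 0.77 to 1.05 without 1 array. Of the 20 symbols of largest SD, 20 recurred with the shared probes left out, 7 with normexp, 6 with the percentile over spots well above background, 6 with quantile normalization, 4 in the deposited table, 7 with the median probe and 6 to 14 without 1 array. The causes were not tested. Of 399 named genes, 76 moved by over 1 SD with the median over a gene's probes, and 29 of 383 with the shared probes left out. The percentile over spots well above background shifted the median gene by -2.21 units. A level below about -4 is a bound set by background, so order among such genes was not detectable.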

Other observations

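Long intergenic RNA regions were detected on all 5 control arrays in 2871 of 4610 cases (62.3%), above the share of gene symbols, and numbered gene models in 854 of 2613 (32.7%). Neither difference was tested.

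Gene symbols detected on more arrays more often had CpG-rich promoters. In the 300 bases around the start of RefSeq genes (250 before and 50 after, GRCm38.p6), a ratio of observed to expected CG pairs of at least 0.6 was found in 56.4% of the 13231 symbols with a promoter. The share was 43.6% of symbols detected on none, 38.9% on 1 array and 66.7% on all 5. With those on all 5 split by level into 4 equal groups, from dim to bright, it was 51.8%, 67.4%, 72.3% and 74.7%. Shared probes were left out of these counts, and the shares are descriptions without a test.

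Probes of 1 gene often differed. Of 3685 symbols with several probes whose brightest was detected on all 5 arrays, 1281 (34.8%) had every probe detected on all 5, and 370 had another probe detected on none.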
